A study of Homo sapiens with 15 samples.

Results

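MHC class I molecules show short peptides from a cell's own proteins to cytotoxic T cells and natural killer cells. The proteasome cuts the proteins, the TAP transporter carries the peptides into the endoplasmic reticulum, and a heavy chain paired with beta-2-microglobulin binds them there and moves to the cell surface. Interferons raise this machinery, which neural tissue usually holds at a low level, and Müller glial cells (MGCs), the main glia of the retina, are known to raise it when stimulated by interferon. The genes described here are 9 members of the pathway, chosen by symbol among the 19684 genes of the deposited tables. They are the heavy chains HLA-B, HLA-C and HLA-E, the light chain B2M, the transporter subunits TAP1 and TAP2, the immunoproteasome subunits PSMB8 and PSMB9, and the transactivator NLRC5.

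Their RNA was measured by poly(A) RNA-seq in 15 libraries, 3 of each of 5 groups, all from 1 human induced pluripotent stem cell (hiPSC) line, BC1-GFP, labelled wild type and carrying GFP. The groups were the undifferentiated hiPSCs, neural retina cut from retinal organoids (ROs) 70 days (D70-ROs) and 150 days (D150-ROs) after induction, and induced MGCs (iMGCs) grown in dishes from dissociated D150-RO neural retina. The iMGCs were taken on day 5 of passage 1 (P1 iMGCs) and on day 5 of passage 5 (P5 iMGCs). The labels name no interferon treatment in any group. The study's methods give 3 independent experiments per group, each RO library pooling 5 ROs, whereas the series' design text gives 2 experiments for hiPSCs and ROs and names a second sequencing company and a correction between batches. The labels do not say which library came from which company, so batch and group cannot be told apart. The culture media also differed between hiPSCs, ROs and iMGCs, the last 2 containing fetal bovine serum. Since there was 1 line, the libraries are no sample of donors.

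Library totals ran from 11349600 counts in D70-RO replicate 2 to 20398755, with a median of 17194154. The pluripotent, retinal progenitor and photoreceptor markers had their largest sums in hiPSCs, D70-ROs and D150-ROs, in that order. POU5F1 and NANOG were high in hiPSCs alone. The 5 retinal progenitor markers summed to between 542 and 664 FPKM in D70-ROs and still to between 223 and 229 FPKM in D150-ROs. The 5 photoreceptor markers summed to between 746 and 785 FPKM in D150-ROs. Of the 7 MGC markers, 5 in P1 and 6 in P5 iMGCs reached a mean of 1 FPKM, but so did 6 in hiPSCs and 7 in D150-ROs, so that count does not mark the iMGCs. VIM was between 2141 and 2901 FPKM in the iMGCs against 985 to 1136 in D150-ROs. APOE was at 35.1 to 40.9 FPKM in P1 and 33.8 to 35.7 in P5 iMGCs against 11.5 to 15.2 in D150-ROs. It was higher still in hiPSCs, at 511 to 573, and in D70-ROs, at 71.9 to 122. CRYAB was at 27.8 to 32.7 FPKM in P1 and 128 to 141 in P5 iMGCs against 10.2 to 12.3 in D150-ROs. VIM and CRYAB were lower in every hiPSC and D70-RO library than in every iMGC library. GLUL, by contrast, had a mean of 100.2 FPKM in D150-ROs against 13.4 in P1 and 14.6 in P5 iMGCs. SOX9 had 42.6 against 5.21 and 3.59, and SLC1A3 28.01 against 0.373 and 1.19. RLBP1, a defining marker of mature MGCs, was at 0 in all P1 libraries and reached at most 0.09 FPKM in P5, against 29.6 to 36.9 FPKM in D150-ROs. The 7 mesenchymal markers summed to between 2296 and 2838 FPKM in the iMGCs, most of it COL1A1, to between 18.3 and 34.2 FPKM in ROs and to between 319 and 379 FPKM in hiPSCs. These collagen-rich, RLBP1-poor cultures are called iMGCs below because the labels do so.

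Of the 9 genes, 7 lie on chromosome 6, and B2M and NLRC5 lie on chromosomes 15 and 16. On GRCh38 with GENCODE 29 annotation, TAP2 (chr6:32821833-32838780), PSMB8 (chr6:32840717-32844703), TAP1 (chr6:32845209-32853978) and PSMB9 (chr6:32844136-32859585) follow each other in the class II region. HLA-E (chr6:30489467-30494205), HLA-C (chr6:31268749-31272130) and HLA-B (chr6:31269491-31357188) stand in the class I region, B2M is at chr15:44711487-44718877 and NLRC5 at chr16:56989485-57083531. Some of these gene models overlap. The annotated HLA-B model shares 2640 bases with HLA-C on the same strand, PSMB9 shares 8770 bases with TAP1 and 568 with PSMB8 on the opposite strand, and TAP2 shares 16948 bases with the read-through model AL669918.1. Whether counting used strand is not given in the sources used here, so reads in those stretches, and reads shared by the near-identical HLA heavy chains, are uncertain in their gene.

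Promoters are shown as background, since these genes are textbook targets of interferon-driven factors. Whether motif matches bear on the rise in iMGCs was not tested. RefSeq start sites on GRCh38.p14 were matched for 7 members, as 9 promoters, and not for HLA-E and NLRC5. The 250 bases before each start were searched on both strands for the interferon-stimulated response element core (GAAA, 2 bases of any kind, GAAA), the gamma-activated site TTCNNNGAA, the CCAAT box, the half-site TGACG of cyclic AMP response elements and the NF-kB site (GGG, 5 bases of any kind, CC). Over all 35116 RefSeq promoters of that length, 3.02% hold the first, 6.57% the second, 32.0% the third, 21.2% the fourth and 54.4% the fifth. The sequences below run 5′ to 3′ on each gene's own strand up to the base before the start, with every match in capitals, so that overlapping matches run together. Of the 9 promoters 6 are printed, 1 for each of 6 members, and both PSMB8 windows and a further TAP1 window are described only.
B2M (chr15:44711267-44711516, plus strand): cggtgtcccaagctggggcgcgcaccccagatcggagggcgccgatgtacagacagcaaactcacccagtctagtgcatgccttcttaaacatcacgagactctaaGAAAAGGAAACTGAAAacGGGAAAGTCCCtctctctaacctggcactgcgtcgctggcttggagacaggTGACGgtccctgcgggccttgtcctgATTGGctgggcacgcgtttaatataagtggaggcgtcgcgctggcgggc
TAP1 (chr6:32853705-32853954, minus strand): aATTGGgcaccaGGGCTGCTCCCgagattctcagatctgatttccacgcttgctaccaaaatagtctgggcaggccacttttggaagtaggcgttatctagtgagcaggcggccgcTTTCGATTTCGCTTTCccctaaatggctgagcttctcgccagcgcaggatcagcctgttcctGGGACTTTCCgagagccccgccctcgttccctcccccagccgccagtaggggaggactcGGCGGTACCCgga
TAP2 (chr6:32838740-32838989, minus strand): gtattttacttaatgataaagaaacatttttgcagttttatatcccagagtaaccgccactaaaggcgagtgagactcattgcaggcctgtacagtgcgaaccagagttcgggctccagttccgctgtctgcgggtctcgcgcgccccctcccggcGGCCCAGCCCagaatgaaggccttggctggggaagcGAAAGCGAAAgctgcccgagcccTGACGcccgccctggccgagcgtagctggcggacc
PSMB9 (chr6:32853942-32854191, plus strand): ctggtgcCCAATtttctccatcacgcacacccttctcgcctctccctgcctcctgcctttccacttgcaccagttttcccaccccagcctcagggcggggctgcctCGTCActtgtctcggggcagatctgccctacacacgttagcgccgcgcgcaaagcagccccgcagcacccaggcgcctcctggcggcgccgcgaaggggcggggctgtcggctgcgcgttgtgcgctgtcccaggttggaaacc
HLA-B (chr6:31357180-31357429, minus strand): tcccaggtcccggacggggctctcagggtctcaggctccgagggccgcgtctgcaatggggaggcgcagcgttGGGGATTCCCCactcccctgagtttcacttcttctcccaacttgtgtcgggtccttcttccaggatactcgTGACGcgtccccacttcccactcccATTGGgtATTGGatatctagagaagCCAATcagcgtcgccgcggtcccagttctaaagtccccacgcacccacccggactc
HLA-C (chr6:31272093-31272342, minus strand): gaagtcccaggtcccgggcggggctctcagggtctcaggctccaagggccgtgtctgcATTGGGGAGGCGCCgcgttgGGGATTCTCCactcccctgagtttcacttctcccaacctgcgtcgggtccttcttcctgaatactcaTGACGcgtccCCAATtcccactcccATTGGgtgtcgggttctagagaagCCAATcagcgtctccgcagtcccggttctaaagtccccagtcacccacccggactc

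The interferon core was in B2M and TAP1, at 2 overlapping places in each, and at 1 place in TAP2. In B2M these matches run from 144 to 129 bases before the start and an NF-kB match follows 2 bases later. In TAP1 they run from 134 to 119 bases before the start, on the other strand. The gamma-activated site was in none of the printed windows but in 1 of the PSMB8 windows, from 65 to 57 bases before that start, and in the further TAP1 window, from 189 to 181 bases before its start. The RefSeq start sites used for TAP1 and PSMB9 are 488 bases apart and point away from each other. The far ends of their windows printed above therefore overlap between those start sites and hold the same CCAAT match. HLA-B and HLA-C have 226 of 250 bases in common (90.4%), whereas no other pair among these 7 genes exceeded 60.8%. Both carry TGACG about 100 bases before the start and CCAAT within 60 bases of it. Neither matches the interferon core as spelled above. Looser spellings of that element were not searched, so a window without a match may still hold one. A match is a run of letters and not an observed binding site.

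Levels are given as FPKM, the authors' read density scaled to transcript length and to the mapped reads of the library, with SD over 3 libraries. The sum of FPKM over all genes differed between libraries, from 387551 to 570482, so FPKM was used for levels and not for the main test. The main test was edgeR's quasi-likelihood test on expected counts with TMM scaling, which sets the bulk of genes to no change. A gene was tested when it reached 1 FPKM in at least 3 of the libraries compared, and was called at a Benjamini-Hochberg adjusted p under 0.05 with at least a 2-fold change. Values of change are log2 fold changes with their SE, and values adjusted for multiple testing are adjusted over all genes tested. The 7 comparisons made share libraries, for example the hiPSC libraries in 3 of them, so they do not repeat each other independently.

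**Figure D1:**
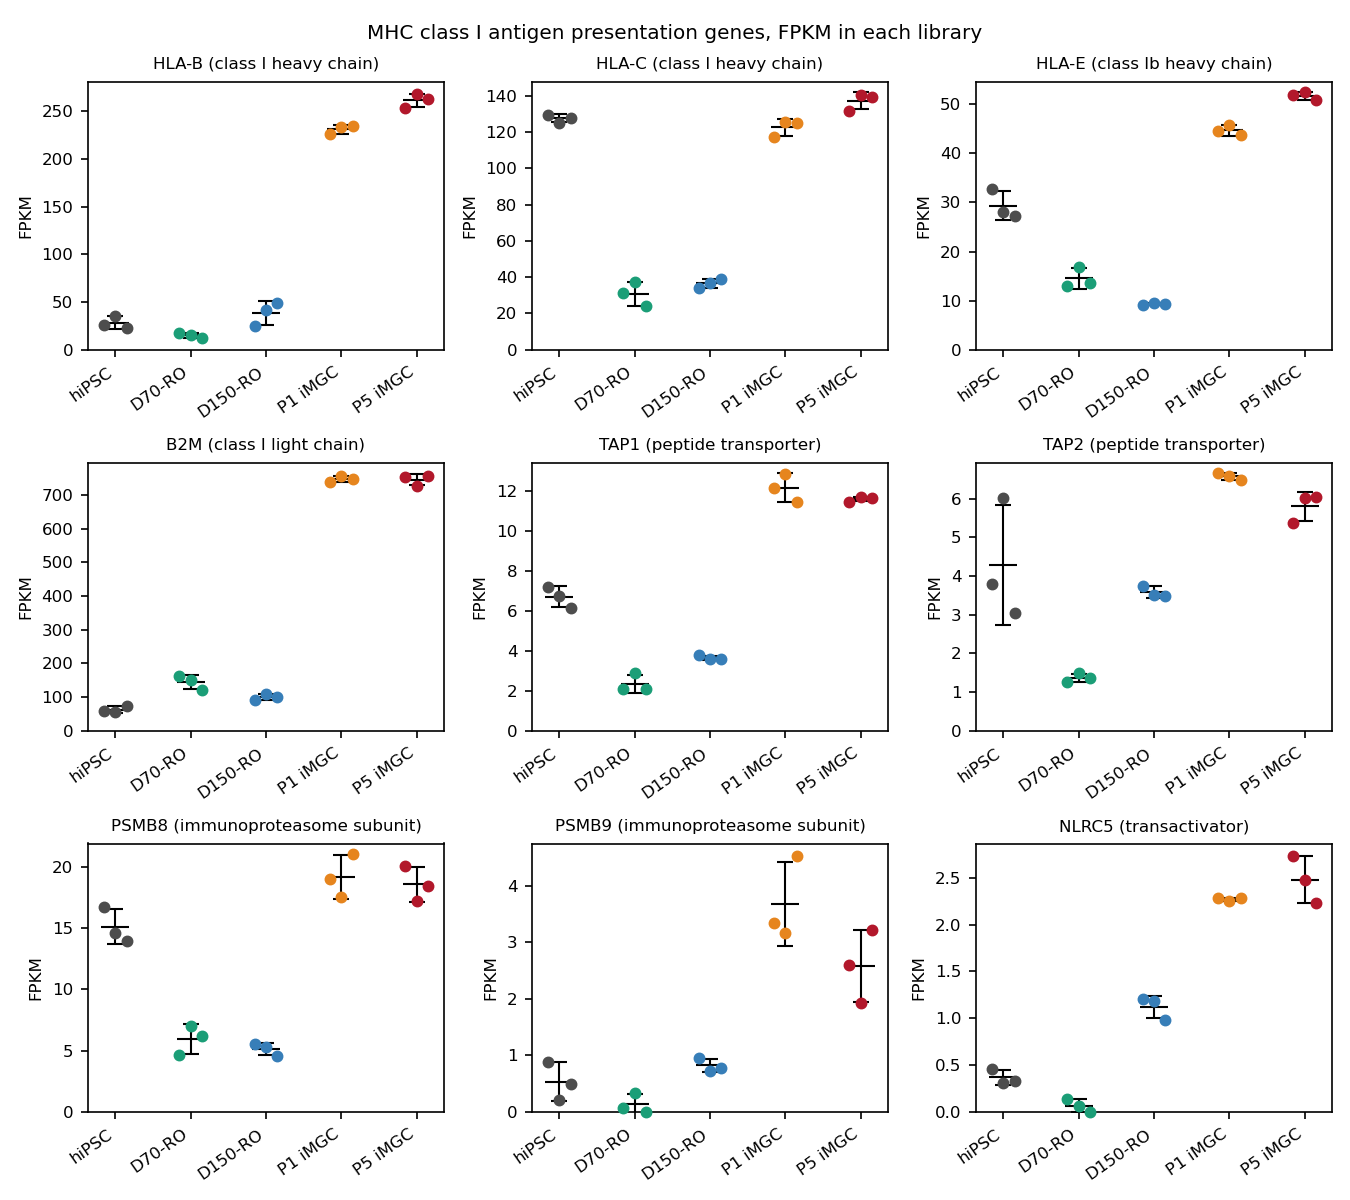
FPKM of each of the 9 genes (vertical axes, each from 0) in the 3 libraries of each group (points), with the mean and SD (black). All 9 genes are higher in every iMGC library than in every D150-RO library, and HLA-C, HLA-E, TAP1 and PSMB8 are also high in hiPSCs.

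HLA-C, HLA-E, TAP1 and PSMB8 fell from hiPSCs to both RO stages, and all 9 genes were higher in iMGCs than in D150-ROs. In D70-ROs against hiPSCs, 7 members could be tested and all were called, B2M higher and the other 6 lower, where 43.5% of all 12954 genes tested were called, 22.5% higher and 21.1% lower. The FPKM ranges of the groups did not overlap for 7 of 7, as for 75.5% of all genes tested. In D150-ROs against hiPSCs 4 of 7 were called, all lower, with 58.8% of all genes called, 29.8% higher and 29.0% lower, and 5 of 7 did not overlap, against 87.4% of all genes. Between D70-ROs and D150-ROs TAP2 alone was called of 7, higher, with 33.3% of genes called, 16.6% higher and 16.7% lower, and 5 of 7 did not overlap, against 77.2%. PSMB9 and NLRC5 did not reach 1 FPKM in 3 libraries of these stage comparisons and were not tested there.

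From D150-ROs to P1 iMGCs 9 of 9 members rose, where 44.1% of 12896 genes were called, 20.0% higher and 24.1% lower. No group ranges overlapped for any of the 9, as for 87.9% of all genes tested. From D150-ROs to P5 iMGCs 9 of 9 rose, with 44.6% of genes called, 20.8% higher and 23.9% lower, and 9 of 9 did not overlap, against 88.5%. PSMB9 passed the limit of 1 FPKM through its iMGC libraries alone and had to differ, so the counts without it are 8 of 8. The D150-RO libraries are the same in both comparisons. Against hiPSCs, 6 of 9 members rose in P1 iMGCs, with 55.8% of genes called, 26.1% higher and 29.7% lower, and 8 of 9 did not overlap, against 86.0%. PSMB9 and NLRC5 passed the limit there through the iMGCs alone and had to differ, so the count without them is 4 of 7. Between P5 and P1 iMGCs 0 of 9 were called by edgeR, where 2.92% of genes were, 1.94% higher and 0.977% lower, and 4 of 9 did not overlap, against 39.5%.

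**Figure D2:**
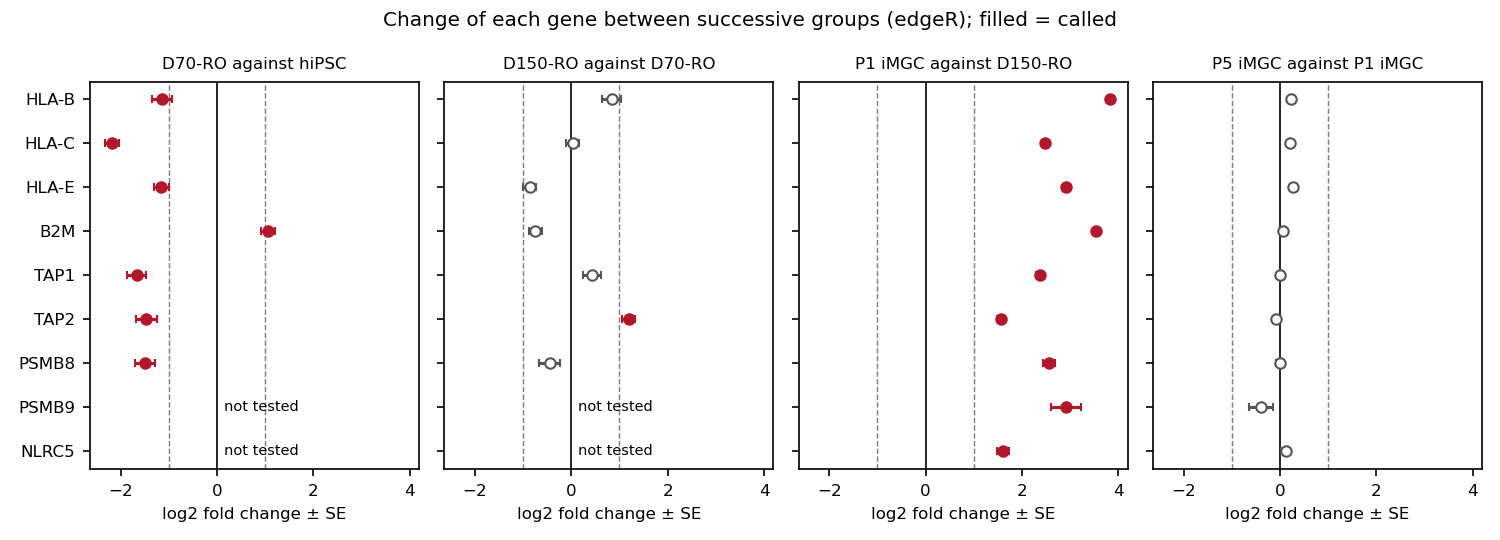
Log2 fold change with SE (horizontal axis) of each gene between successive groups, by edgeR, with filled red points for called genes, open points for the others and dashed lines at a 2-fold change. The 6 lower genes and B2M separate in D70-ROs against hiPSCs, all 9 genes lie right of the 2-fold line in P1 iMGCs against D150-ROs, and the P5 against P1 values stay near 0.

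The polymorphic heavy chains HLA-B and HLA-C had different courses. HLA-C, which is also the main ligand of killer-cell receptors of the KIR family, was at 129, 125 and 128 FPKM in the 3 hiPSC libraries. It was at 31.2, 37.1 and 23.9 in D70-ROs, at 34.0, 36.8 and 38.9 in D150-ROs, at 117, 126 and 125 in P1 iMGCs and at 132, 140 and 139 in P5 iMGCs. The RO libraries formed 1 low set and the hiPSC and P1 iMGC libraries 1 high set, within each of which the groups overlapped. HLA-C fell by 2.18 ± 0.14 in D70-ROs (adjusted p = 1.44e-07) and by 2.15 ± 0.09 in D150-ROs (adjusted p = 3.48e-10) against hiPSCs, and rose by 2.49 ± 0.06 in P1 iMGCs against D150-ROs (adjusted p = 2.72e-15). P1 iMGCs against hiPSCs gave 0.33 ± 0.07, under the 2-fold limit (adjusted p = 0.00107), and the sign turned on the FPKM scale, meaning limma on log2(FPKM + 1), to -0.055.

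HLA-B, a highly polymorphic chain that presents viral peptides to T cells, started low instead. It was at 25.7, 35.8 and 22.9 FPKM in hiPSCs and at 17.4, 15.4 and 12.3 in D70-ROs. In D150-ROs it was at 24.9, 41.3 and 49.5, in P1 iMGCs at 226, 234 and 235, and in P5 iMGCs at 254, 268 and 263. Every iMGC library was thus above every other library, while hiPSCs and D150-ROs overlapped. HLA-B rose by 3.83 ± 0.05 in P1 iMGCs (adjusted p = 4.98e-18) and by 4.06 ± 0.06 in P5 iMGCs (adjusted p = 2.23e-18) against D150-ROs, and by 3.51 ± 0.08 in P1 iMGCs against hiPSCs (adjusted p = 1.26e-11). In D70-ROs it was called lower than in hiPSCs, by -1.14 ± 0.21 (adjusted p = 0.000389), a call lost at -0.93 without D70-RO replicate 3 and at -0.85 by limma on log2(FPKM + 1).

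The stage values of HLA-B depended on the scale. The length implied by counts over FPKM was 1547 bases in most libraries but 1074 in hiPSC replicate 2 and as low as 1072 at D70 and 840 at D150. The median of all genes also moved between the scales, by 0.29 in D150-ROs against hiPSCs and by 0.20 in D150-ROs against D70-ROs, and the parts of length and scaling were not tested. D150-ROs against hiPSCs gave -0.31 ± 0.10 on counts (adjusted p = 0.00979) and 0.41 ± 0.23 by limma on log2(FPKM + 1) (adjusted p = 0.12). D150-ROs against D70-ROs gave 0.84 ± 0.20 on counts (adjusted p = 0.00452), under the 2-fold limit, but 1.05 without D70-RO replicate 2 and 1.26 on the FPKM scale. In FPKM the ratio of HLA-B to HLA-C went from 0.222 ± 0.057 in hiPSCs through 0.497 ± 0.073 and 1.04 ± 0.28 in D70-ROs and D150-ROs to 1.89 ± 0.04 in P1 iMGCs and 1.91 ± 0.02 in P5 iMGCs. These ranges did not overlap between hiPSCs, either RO stage and the iMGCs.

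HLA-E shows peptides cut from the leaders of other class I chains and is read by the inhibitory receptor NKG2A of natural killer cells. It was at 32.7, 28.1 and 27.2 FPKM in hiPSCs, at 13.1, 16.9 and 13.6 in D70-ROs and at 9.08, 9.51 and 9.26 in D150-ROs. It was at 44.6, 45.8 and 43.7 in P1 iMGCs and at 51.8, 52.4 and 50.9 in P5 iMGCs. No 2 groups overlapped, in the order D150-RO, D70-RO, hiPSC, P1 iMGC and P5 iMGC. HLA-E fell by 1.15 ± 0.15 in D70-ROs (adjusted p = 3.05e-05) and by 2.02 ± 0.10 in D150-ROs (adjusted p = 1.91e-09) against hiPSCs, the first value being -0.97 on the FPKM scale but past the 2-fold limit with a pseudocount of 0.1. D150-ROs against D70-ROs gave -0.87 ± 0.13, under the 2-fold limit (adjusted p = 0.000363). It rose by 2.91 ± 0.06 in P1 iMGCs against D150-ROs (adjusted p = 1.59e-16), and P1 iMGCs against hiPSCs gave 0.88 ± 0.09, under the 2-fold limit (adjusted p = 1.42e-06).

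B2M, the invariant light chain without which class I heavy chains do not reach the surface, was the member with the highest FPKM in ROs and iMGCs. It was at 58.5, 55.6 and 74.5 FPKM in hiPSCs, at 162, 151 and 121 in D70-ROs and at 91.7, 110 and 100 in D150-ROs. In P1 iMGCs it was at 738, 758 and 749, and in P5 iMGCs at 753, 727 and 757. The RO libraries lay above all hiPSC libraries, D70-ROs above D150-ROs, and the 2 iMGC groups overlapped far above the rest. Against hiPSCs, B2M was called higher at D70, by 1.06 ± 0.15 (adjusted p = 6.57e-05). That value stood at the edge of the 2-fold limit, at 0.99 without hiPSC replicate 2, 0.99 without D70-RO replicate 1 and 1.00 without D70-RO replicate 2, each just under it. D150-ROs against D70-ROs gave -0.74 ± 0.13, also under the limit (adjusted p = 0.000629). B2M rose by 3.53 ± 0.06 in P1 iMGCs (adjusted p = 5.08e-17) and by 3.58 ± 0.06 in P5 iMGCs (adjusted p = 1.41e-17) against D150-ROs, and by 3.84 ± 0.11 in P1 iMGCs against hiPSCs (adjusted p = 5.82e-11).

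B2M and the heavy chains therefore did not keep 1 proportion. In FPKM, B2M per summed HLA-B, HLA-C and HLA-E was 0.341 ± 0.067 in hiPSCs, 2.41 ± 0.23 in D70-ROs, 1.21 ± 0.16 in D150-ROs, 1.88 ± 0.02 in P1 iMGCs and 1.66 ± 0.07 in P5 iMGCs (SD, n = 3 each). The summed RNA of these 3 heavy chains exceeded B2M RNA in every hiPSC library and was below it in every RO and iMGC library. The sum itself was at 185 ± 6 FPKM in hiPSCs, 60.3 ± 9.9 in D70-ROs, 84.4 ± 15.0 in D150-ROs, 399 ± 10 in P1 iMGCs and 450.4 ± 11.7 in P5 iMGCs.

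TAP1 and TAP2 form the heterodimer that pumps peptides into the endoplasmic reticulum. TAP1 was at 7.22, 6.76 and 6.16 FPKM in hiPSCs, at 2.07, 2.89 and 2.08 in D70-ROs and at 3.78, 3.58 and 3.57 in D150-ROs. It was at 12.2, 12.9 and 11.4 in P1 iMGCs and at 11.5, 11.7 and 11.7 in P5 iMGCs. Only the 2 iMGC groups overlapped. TAP1 fell by 1.67 ± 0.19 in D70-ROs (adjusted p = 1.35e-05) and by 1.24 ± 0.12 in D150-ROs (adjusted p = 9.42e-07) against hiPSCs, the second value being -0.73 by limma on log2(FPKM + 1). It rose by 2.38 ± 0.09 in P1 iMGCs against D150-ROs (adjusted p = 3.8e-13) and by 1.13 ± 0.10 against hiPSCs (adjusted p = 6.4e-07), the latter being 0.77 on the FPKM scale.

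TAP2 was at 3.78, 6.02 and 3.05 FPKM in hiPSCs, at 1.25, 1.48 and 1.36 in D70-ROs and at 3.75, 3.51 and 3.48 in D150-ROs. It was at 6.66, 6.57 and 6.49 in P1 iMGCs and at 5.36, 6.01 and 6.03 in P5 iMGCs. The D70-RO libraries were the lowest, D150-ROs and hiPSCs overlapped, and hiPSC replicate 2 reached the P5 range. TAP2 fell by 1.46 ± 0.22 in D70-ROs against hiPSCs (adjusted p = 9.06e-05) and was called higher at D150 than at D70, by 1.19 ± 0.14 (adjusted p = 6.43e-05), the latter being 0.96 on the FPKM scale but past the 2-fold limit with a pseudocount of 0.1. It rose by 1.57 ± 0.08 in P1 iMGCs against D150-ROs (adjusted p = 2.73e-11), which was 0.73 on the FPKM scale and thus under the 2-fold limit there. Against hiPSCs it rose by 1.29 ± 0.16 (adjusted p = 1.34e-05), or 0.56 on the FPKM scale. Its implied length, counts over FPKM, averaged 4155 bases in hiPSCs, 5114 in D70-ROs, 5172 in D150-ROs and 5355 in P1 iMGCs. The part of length in these changes of TAP2 was not tested.

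PSMB8 and PSMB9 replace the constitutive proteasome subunits PSMB5 and PSMB6 to form the immunoproteasome, which cuts peptides suited to class I. PSMB8 was at 16.8, 14.6 and 13.99 FPKM in hiPSCs, at 4.64, 6.99 and 6.21 in D70-ROs and at 5.57, 5.30 and 4.58 in D150-ROs. It was at 19.0, 17.5 and 21.1 in P1 iMGCs and at 20.1, 17.2 and 18.4 in P5 iMGCs. The 2 RO stages overlapped at the low end and the 2 iMGC groups at the high end, with hiPSCs just under the iMGCs. PSMB8 fell by 1.49 ± 0.21 in D70-ROs (adjusted p = 5.29e-05) and by 1.95 ± 0.15 in D150-ROs (adjusted p = 7.45e-08) against hiPSCs, and rose by 2.56 ± 0.12 in P1 iMGCs against D150-ROs (adjusted p = 1.19e-11). P1 iMGCs against hiPSCs gave 0.61 ± 0.12, under the 2-fold limit (adjusted p = 0.000407).

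PSMB9 was low throughout. It was at 0.89, 0.20 and 0.50 FPKM in hiPSCs, at 0.06, 0.34 and 0.00 in D70-ROs, at 0.95, 0.73 and 0.78 in D150-ROs, at 3.35, 3.16 and 4.52 in P1 iMGCs and at 2.60, 1.93 and 3.21 in P5 iMGCs. The D70-RO libraries held 1, 3 and 0 counts and the D150-RO libraries 8, 9 and 10, against 26 to 62 in the iMGCs, and a library with 0 counts may still hold up to 3. PSMB9 rose by 2.92 ± 0.32 in P1 iMGCs (adjusted p = 3.74e-07) and by 2.52 ± 0.33 in P5 iMGCs (adjusted p = 2.12e-06) against D150-ROs. The P5 value was 0.96 by limma on log2(FPKM + 1) and 1.52 on log2(FPKM + 0.1). Without the filter on low values, D150-ROs against hiPSCs gave 0.06 ± 0.61 (adjusted p = 0.929).

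Set against its constitutive counterpart, each immunoproteasome subunit took its largest share in iMGCs. PSMB8 made up 8.05% ± 1.09 of summed PSMB8 and PSMB5 FPKM in hiPSCs, 3.71% ± 0.74 in D70-ROs, 8.40% ± 0.94 in D150-ROs, 20.2% ± 1.8 in P1 iMGCs and 21.9% ± 0.4 in P5 iMGCs (SD, n = 3). The D150-RO share equalled that of hiPSCs within its spread although PSMB8 itself was lower, since PSMB5 was also lower, by -2.01 (called), in D150-ROs against hiPSCs. PSMB9 made up 0.296% ± 0.204 of PSMB9 and PSMB6 in hiPSCs, 0.142% ± 0.190 in D70-ROs, 1.54% ± 0.07 in D150-ROs, 6.88% ± 1.73 in P1 iMGCs and 4.74% ± 1.04 in P5 iMGCs. PSMB10, which is no member and replaces PSMB7, went from 5.17% ± 0.62 in hiPSCs to 2.42% ± 0.03 and 3.25% ± 0.75 in D70-ROs and D150-ROs and to 6.82% ± 1.16 and 7.60% ± 1.39 in P1 and P5 iMGCs, where the hiPSC range came close to that of P1 iMGCs. The constitutive forms remained the larger part in all libraries.

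**Figure D3:**
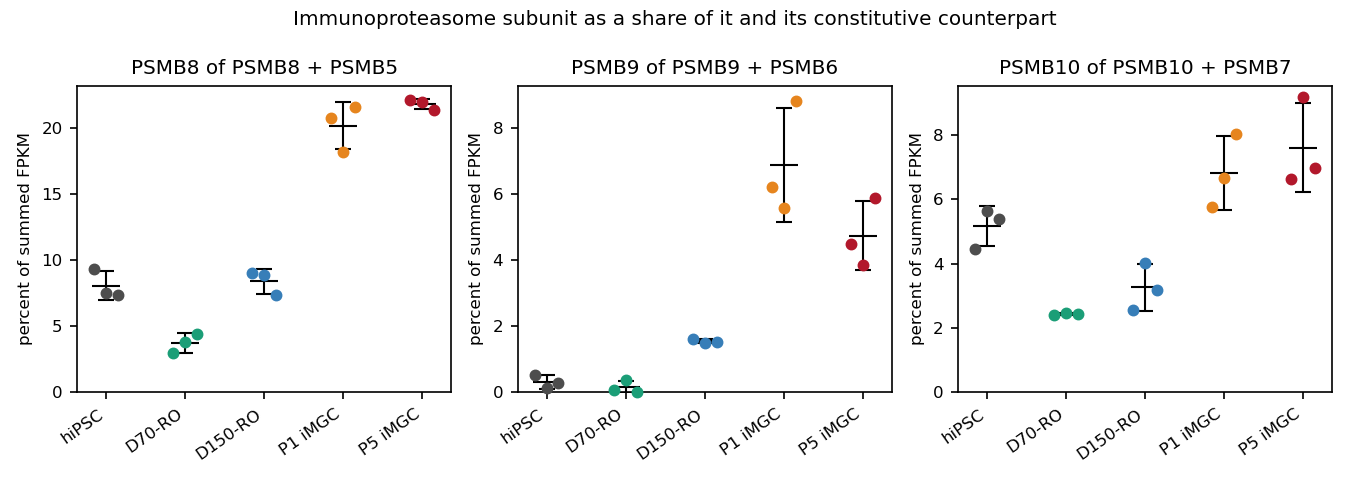
Immunoproteasome subunit as a percent of the summed FPKM of it and its constitutive counterpart (vertical axes from 0) in each library (points), with mean and SD (black). PSMB8 and PSMB9 take larger shares in every iMGC library than in any other library, between 18.2% and 22.2% for PSMB8 and between 3.85% and 8.84% for PSMB9.

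NLRC5, the transactivator that assembles on class I promoters, was also low. It was at 0.46, 0.31 and 0.33 FPKM in hiPSCs, at 0.14, 0.06 and 0.00 in D70-ROs, at 1.20, 1.18 and 0.98 in D150-ROs, at 2.28, 2.25 and 2.28 in P1 iMGCs and at 2.73, 2.48 and 2.23 in P5 iMGCs. The D70-RO libraries held 4, 2 and 0 counts, the hiPSC libraries 24 to 37, the D150-RO libraries 109 to 132 and the iMGC libraries 208 to 294. D70-RO, hiPSC and D150-RO libraries did not overlap, and the 2 iMGC groups did. Without the filter, NLRC5 fell by 3.70 ± 0.65 in D70-ROs against hiPSCs (adjusted p = 0.000148), on those few counts. It rose by 1.95 ± 0.22 from hiPSCs to D150-ROs (adjusted p = 3.24e-07), where HLA-C, HLA-E, TAP1 and PSMB8 fell. The length implied by its counts over FPKM averaged 4132 bases in hiPSCs and 6727 in D150-ROs, and its part in that rise was not tested. NLRC5 rose by 1.60 ± 0.12 in P1 iMGCs (adjusted p = 3.39e-09) and by 1.71 ± 0.12 in P5 iMGCs (adjusted p = 1.52e-09) against D150-ROs. By limma those values were 0.63 and 0.71 on log2(FPKM + 1) and 0.96 and 1.08 on log2(FPKM + 0.1), the last past the 2-fold limit.

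The size of the rise in iMGCs depended on how libraries were scaled, though its direction did not. On log2(FPKM + 1) the median of all genes in P1 iMGCs against D150-ROs was lower by 0.55 than on TMM-scaled counts, and in P5 iMGCs by 0.60. Upper-quartile scaling lowered that median by 0.12 and 0.11. On log2(FPKM + 1), P1 iMGCs still exceeded D150-ROs by 2.89 for B2M, 2.61 for HLA-B, 2.15 for HLA-E, 1.72 for HLA-C, 1.72 for PSMB8, 1.5 for TAP1 and 1.35 for PSMB9. In all, 7 of the 9 members kept their call under every alternative in P1 iMGCs against D150-ROs, TAP2 and NLRC5 being the exceptions, or 6 of 8 without PSMB9, which had to differ. In that comparison HLA-B had 3.35% of all genes tested above it by fold change, B2M 3.96%, PSMB9 5.22%, HLA-E 5.25%, PSMB8 6.43%, HLA-C 6.68%, TAP1 7.01%, NLRC5 12.0% and TAP2 12.2%.

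**Figure D4:**
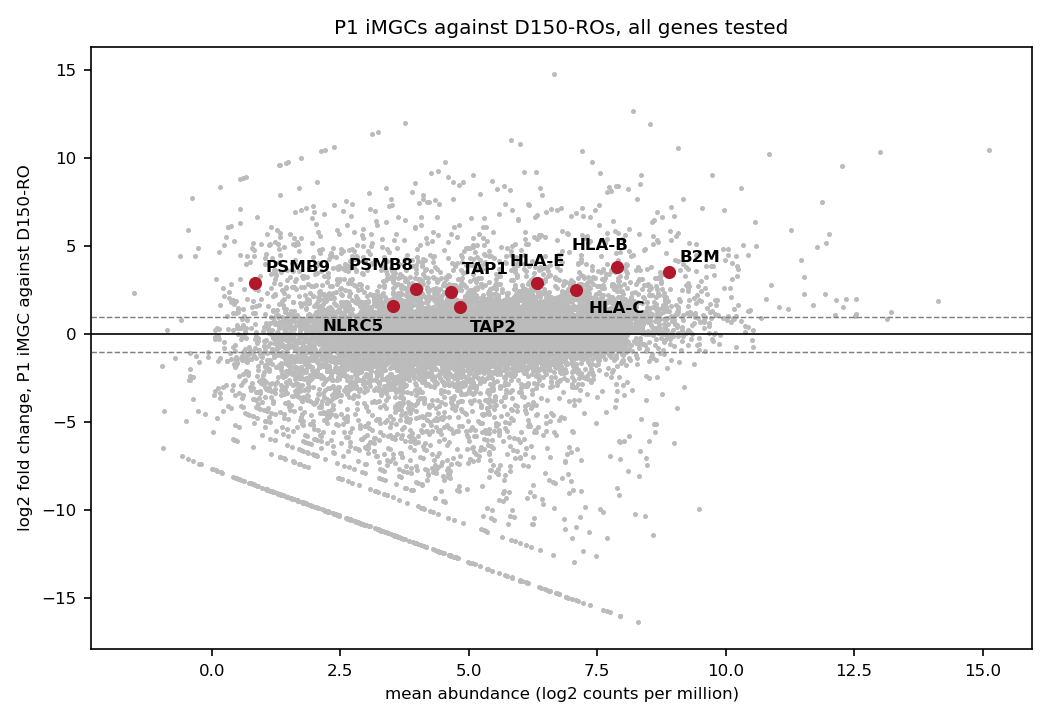
Log2 fold change of P1 iMGCs against D150-ROs (vertical axis) over mean abundance in log2 CPM (counts scaled to library size; horizontal axis) for the 12896 genes tested (grey), with the 9 genes in red and dashed lines at a 2-fold change. The 9 genes lie above the upper line, between 1.57 (TAP2) and 3.83 (HLA-B), and within the cloud of other genes that rose.

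Genes of short implied length also behaved differently from those of long implied length in the stage comparisons and in P1 iMGCs against hiPSCs. Length here is the median implied by counts over FPKM and not the span of the gene. In D150-ROs against hiPSCs the median change was -0.83 in the shortest of 4 equal classes of that length and 0.86 in the longest. It was -0.67 and 0.55 in D150-ROs against D70-ROs, and -0.63 and 0.64 in P1 iMGCs against hiPSCs. HLA-B, HLA-C, B2M and PSMB8 are in the shortest class and TAP2 in the longest. Where they were tested, PSMB9 is in the shortest and NLRC5 in the longest. In D70-ROs against hiPSCs those medians were -0.11 and 0.26, and in P1 iMGCs against D150-ROs 0.26 and -0.25. The part of length in the members' changes was not tested.

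In P5 iMGCs the members stood close to their P1 values. The 3 heavy chains were higher by small amounts, HLA-E by 0.27 ± 0.04 (adjusted p = 1.52e-05), HLA-B by 0.24 ± 0.04 (adjusted p = 3.87e-05) and HLA-C by 0.22 ± 0.04 (adjusted p = 0.000413), and their FPKM ranges in P5 and P1 did not overlap. These 3 of 9 members were also those under an unadjusted p of 0.05 by edgeR, and DESeq2 and limma each put 3 of 9 under an adjusted p of 0.05. With all 15 libraries in 1 fit, which takes its spread from all groups, it was 0 of 9. B2M gave 0.06 ± 0.03 (adjusted p = 0.243), NLRC5 0.12 ± 0.09, PSMB8 0.0032 ± 0.0832, TAP1 -0.0047 ± 0.0640, TAP2 -0.08 ± 0.07 and PSMB9 -0.39 ± 0.25, all with an adjusted p above 0.05.

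The other genes of the class I route moved with the members in part. Of 18 further genes (among them the heavy chains HLA-F and HLA-G, class I-like molecules, the loading complex, the aminopeptidases ERAP1 and ERAP2, PSMB10 and the proteasome activators PSME1 and PSME2), 14 were tested in D70-ROs against hiPSCs and 8 fell, none rose, with a median of -1.28 against 0.02 over all genes. In D150-ROs against hiPSCs 10 of 14 fell and none rose (median -1.52), and between the RO stages 0 of 11 were called. Over all genes 21.1% and 29.0% were called lower at D70 and D150 against hiPSCs, and 33.3% were called between the RO stages. In P1 iMGCs against D150-ROs 12 of 15 rose and none fell, with a median of 2.04 against -0.05 over all genes, and in P5 iMGCs 11 of 14 rose (median 2.16). Of all genes 20.0% and 20.8% were called higher in those comparisons. Of the listed genes, 4 of the 15 and 3 of the 14 passed the filter through the iMGCs alone, as 3 of 14 did through hiPSCs alone at each RO stage, and had to differ. In P1 iMGCs against hiPSCs 5 of 16 rose and 2 fell, against 26.1% and 29.7% of all genes. MR1 passed the filter there through the iMGCs alone and HLA-G through hiPSCs alone. In P5 against P1 iMGCs MR1 alone was called of 16, lower by -1.12, and it passed through the P1 libraries alone and had to be lower.

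Members of that list differed widely. MICB, a stress-induced ligand of the killer-cell receptor NKG2D, was at 11.2 to 13.5 FPKM in hiPSCs, at most 0.47 in ROs and at 4.39 to 5.11 in P1 iMGCs, with a rise of 7.58 from D150-ROs. MICB, MR1 and HFE were under 1 FPKM in every D150-RO library and had to rise. MR1, which presents vitamin B metabolites, rose by 5.11, HFE, a class I-like regulator of iron uptake, by 4.41, and MICA by 3.90 in that comparison. TAPBP (tapasin), which bridges TAP and the heavy chain, gave -0.41 and 0.03 (neither called) in D70-ROs and D150-ROs against hiPSCs and rose by 2.31 in P1 iMGCs against D150-ROs. CALR (calreticulin), a chaperone of the heavy chain, fell by 1.92 and 1.5 in the ROs and rose by 1.66 in P1 iMGCs, and PSMB10 fell by 1.09 and 2.02 and rose by 2.07. ERAP1, which trims peptides, gave 0.29 and 0.67 (neither called) in ROs and rose by 1.08 in P1 iMGCs. PSME1 and PSME2, which cap the proteasome, were not called in P1 iMGCs, at 0.64 and 0.54. HLA-G, a heavy chain of placenta, had 106 counts over the hiPSC libraries and 0 over the P1 iMGC libraries, which makes it at least 29.8-fold lower at a floor of 3 counts over the group.

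**Figure D5:**
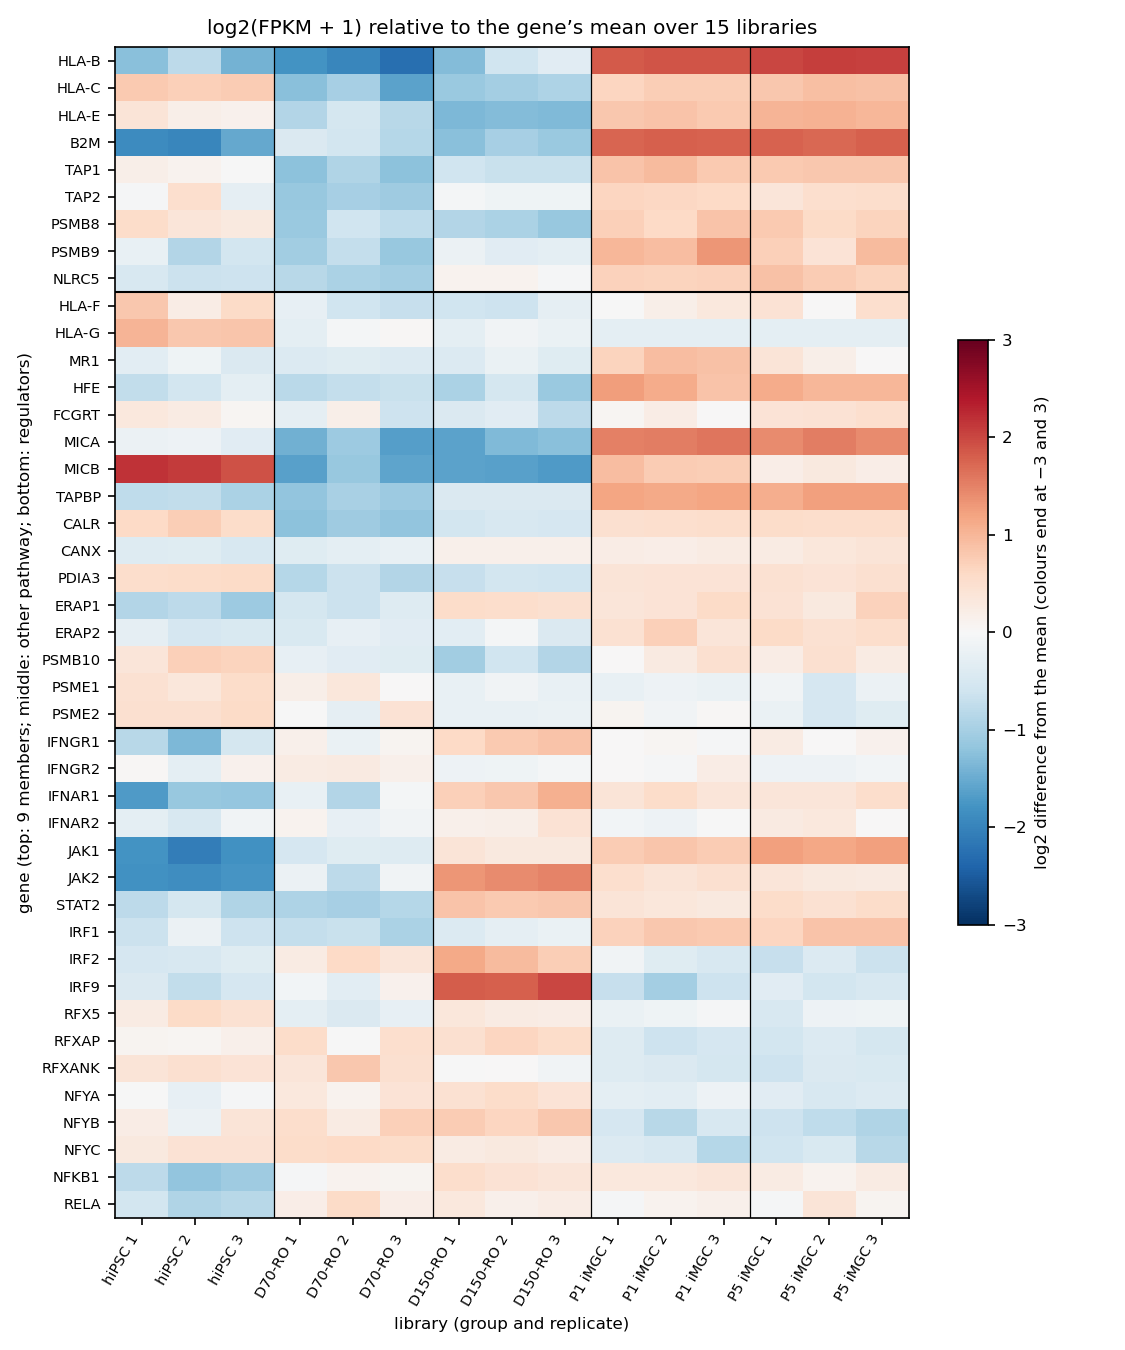
Difference of log2(FPKM + 1) from the gene's mean over 15 libraries (colour) for the 9 members and for other pathway genes and regulators that reached 1 FPKM (rows) in each library (columns). The members and most of the other pathway genes are red in all 6 iMGC libraries, whereas HLA-G is pale or blue there and IRF9 is darkest red in D150-ROs.

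The constitutive proteasome and the upstream regulators were compared by the same test. Of 14 constitutive 20S proteasome genes 10 fell in D150-ROs against hiPSCs, where 29.0% of all genes tested were called lower. In P1 iMGCs against D150-ROs 5 of the 14 rose, where 20.0% of all genes were called higher. Their median there was 0.90 where the members' median was 2.56. In that comparison PSMB5 rose by 1.09, and PSMB6 and PSMB7 gave 0.58 and 0.93 (not called). Of 21 regulators of the interferon, RFX, NFY and NF-kB routes 19 were tested, and 2 rose and 1 fell, against 20.0% and 24.1% of all genes. IRF1, an interferon-induced factor that binds class I promoters, rose by 1.98, with 4.09 to 4.83 FPKM in D150-ROs and 9.81 to 10.8 in P1 iMGCs. JAK1, a kinase of interferon receptors, rose by 1.12 and IRF9, the DNA-binding part of the type I interferon complex, fell by 1.56.

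RFX5, which binds class I and class II promoters with NLRC5 or CIITA, gave 0.22 in P1 iMGCs against D150-ROs (not called). Interferon gamma (IFNG) and interferon beta (IFNB1) were at 0 FPKM in all 15 libraries. In D150-ROs JAK2, IFNAR1, IRF9 and JAK1 were the regulators that rose most against hiPSCs, by 5.17, 2.86, 2.12 and 2.00, while 4 members fell. JAK2 was at 0.19 to 0.28 FPKM in hiPSCs, passed the filter through D150-ROs alone and had to rise.

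Markers of other cells that carry class I were checked beside the rise in iMGCs. The 8 microglia and leukocyte markers summed to between 0.31 and 0.94 FPKM in the iMGCs, with 5 of 8 at 0 in all P1 libraries, including AIF1, C1QA and TYROBP, and 4 of 8 in P5. Most of that sum was CSF1R, a receptor of macrophages, which moved with the members, from 4 counts over the D150-RO libraries (mean 0.0200 FPKM) to 78 in P1 (0.557) and 64 in P5 iMGCs (0.320). The 5 endothelial markers summed to between 0.13 and 0.43 FPKM. All 7 mesenchymal markers in P1 and 6 of 7 in P5 reached a mean of 1 FPKM, and their sum rose with the members. The part of cells with CSF1R, of that change in mesenchymal markers, of the culture medium and of the batch in the members' rise was not tested. RNA per cell and the share of cells that make it cannot be told apart in these bulk libraries.

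As a description over 15 libraries from 5 groups, the genes whose log2(FPKM + 1) was most like B2M were PLK2 (Pearson r = 0.996), FBN1 (0.994), PARVA (0.994), CD164 (0.993) and PLPP4 (0.990), out of 13816 genes, of which 241 exceeded 0.95. Those most like the mean of the 9 members were CYR61 (0.996), MAN2A1 (0.996), LGALS3BP (0.995), S100A16 (0.995) and EHD2 (0.995), with 265 above 0.95. Among the members, r ran from 0.471 (B2M with HLA-C) to 0.968 (HLA-E with PSMB8). HLA-C, HLA-E, TAP1 and PSMB8, which are high in both hiPSCs and iMGCs, reached 0.913 or more with each other, and HLA-B, PSMB9 and NLRC5 reached 0.927 or more.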

How the data were processed

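Poly(A) RNA of the 15 libraries was mapped by the authors with HISAT2, assembled with StringTie and quantified with RSEM, whose versions, genome build and annotation are not given in the sources used here. The deposited tables hold expected counts, unscaled estimates of reads by RSEM, and FPKM, scaled to length and library by the authors. Between 8.21% and 10.1% of the expected counts per library were not whole, and they were rounded. hiPSC and RO libraries stand in 1 table and iMGC libraries in another, so counts were scaled jointly in each fit and FPKM is set across tables as deposited. Not used were 12 columns of one further table, 6 of them for iMGCs of no stated passage. All gene identifiers were named from GENCODE 29, and promoter sequences are RefSeq's on GRCh38.p14.

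Groups were compared 2 at a time in R 4.3.3 with edgeR 4.0.16 (glmQLFit and glmQLFTest, TMM factors, no covariate) on genes reaching 1 FPKM in 3 or more libraries of the pair. Alternatives were upper-quartile scaling, DESeq2 1.42.0, no filter, limma 3.58.1 on log2(FPKM + 1) and log2(FPKM + 0.1), a test against a 2-fold change, all 15 libraries in 1 fit, a replicate block and leaving out each library. The fits were tested on simulated data. Within every group each pair of libraries differed by more than sampling noise. The members and gene lists were chosen with earlier results of these data known. All 9 members are named. From each other list counts are given, with up to 4 called genes of largest change per comparison and TAPBP, PSMB10, PSME1, PSME2, ERAP1, CALR, PSMB5, PSMB6, PSMB7, IRF1, RFX5 and CIITA whatever their values. Some listed genes are not reported here by name. The values of IFNG, IFNB1, HLA-DRA and AIF1 were added after they were seen. P-values measure the spread between these libraries of 1 cell line.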

Additional observations from a re-analysis of the deposited data

How the results depend on the processing

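Of the 804 values of the members' changes under alternatives, 755 kept their direction and their side of the threshold, 27 lost the call, 4 gained it and 18 turned sign, and no called value turned sign. With a test against a 2-fold change, 4 rather than 7 members were called in D70-ROs against hiPSCs and 0 rather than 1 in D150-ROs against D70-ROs. Over all genes that test called 4337 rather than 5639 of 12954 and 2830 rather than 4276 of 12855. In D150-ROs against D70-ROs 3 members were called with no filter, 2 by limma on log2(FPKM + 0.1) and 3 with all 15 libraries in 1 fit. Those settings called 5290 of 17251, 4375 of 12855 and 4705 of 13915 genes. Between 1 and 2 members were called when 1 library was left out (2 without D70-RO replicate 2, with 3978 of 12855 genes). Of the other pathway genes there, none was called in the main analysis, 1 with upper-quartile scaling, 1 by limma with either pseudocount, 2 with all 15 libraries and 0 to 1 without 1 library (1 without D150-RO replicate 2). Of all 12855 genes there, upper-quartile scaling called 4302, limma 3552 and 4375 with pseudocounts of 1 and 0.1, and the fit without D150-RO replicate 2 called 4329. In P5 against P1 iMGCs 0 rather than 1 of the other pathway genes were called by limma on log2(FPKM + 1) and in the 2-fold test, and 0 to 1 without 1 library (0 without P5 iMGC replicate 3). Of 11366 genes, limma called 152, the 2-fold test 161 and the fit without P5 iMGC replicate 3 called 327, rather than 332. Values that turned sign were HLA-B in D150-ROs against hiPSCs (0.41 and 0.42 by limma with the 2 pseudocounts) and HLA-C in P1 iMGCs against hiPSCs (-0.055 by limma with both). HLA-C in D150-ROs against D70-ROs turned to -0.075 with upper-quartile scaling and ran from -0.11 to 0.17 without 1 library. In P5 against P1 iMGCs B2M turned to -0.0049 by limma with both pseudocounts, TAP1 ran from -0.045 to 0.042 without 1 library, and PSMB8 turned to -0.00018 by DESeq2, -0.044 and -0.047 by limma and -0.0091 in the joint fit, and ran from -0.057 to 0.081 without 1 library. The cause was not tested. Replicate numbers did not pair the libraries, as same-numbered libraries' deviations correlated between -0.07 and 0.34 and 5 of 15 libraries correlated best with their own number. The replicate block left each count of members called as it was, at 7, 4, 1, 9, 9, 0 and 6 over the 7 comparisons. Depth limits PSMB9 and NLRC5 in hiPSCs and ROs, where counts were few.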

Other observations

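MHC class II genes present peptides from outside the cell. Of 10 class II genes 3 were tested in P1 iMGCs against D150-ROs, with HLA-DMA and CD74 higher and HLA-DPB1 lower, each of which passed the filter through 1 group alone and had to differ. CD74, the invariant chain of class II, was at 43.3 to 47.2 FPKM in hiPSCs, at 3.50 to 5.05 in D70-ROs, at 0.66 to 0.86 in D150-ROs, at 2.80 to 3.04 in P1 iMGCs and at 1.2 to 1.63 in P5 iMGCs. It fell by 3.64 in D70-ROs and by 6.36 in D150-ROs against hiPSCs, rose by 2.68 in P1 iMGCs against D150-ROs and fell by 1.23 from P1 to P5. In D150-ROs against hiPSCs CD74 passed the filter through hiPSCs alone and had to fall. HLA-DMA, which loads peptides on class II, rose by 4.69 in P1 iMGCs against D150-ROs and by 1.16 from P1 to P5. HLA-DRA, the chain of the main class II molecule, was at 0 FPKM in all D150-RO and iMGC libraries, and CIITA, the class II counterpart of NLRC5, was between 0.07 and 1.37 FPKM over all 15 libraries. AIF1, counted here among microglia markers, was at 7.80 to 10.0 FPKM in hiPSCs, where the other 7 markers of that list were each at most 0.38 FPKM.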
